A study of Mus musculus with 6 samples.

Results

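Autophagy genes were followed in isolated mouse pancreatic islets through 38 named genes of the core machinery and its cargo receptors, taken by gene identifier and symbol from a deposited table of 34745 genes. All 38 were found, and all 38 belonged to the 13233 genes that reached 1 FPKM in 2 or more libraries and were tested. FPKM is the number of fragments scaled to transcript length and to the mapped fragments of the library, so levels can be set side by side between genes. The series holds 6 libraries of poly-A RNA from islets of C57BL/6 mice aged 8 weeks, 2 in each of 3 groups. KO+DNMT3A stands for islets of the βRapKO genotype with Dnmt3a expression, which the series design writes as LvDnmt3a. KO stands for βRapKO islets without it, and WT for wild-type islets. In βRapKO mice the gene of Raptor, Rptor, is deleted in beta cells, so the other islet cells keep it; the driver of the deletion is not named in the labels, nor is whether islets of several mice were pooled. The deposited names of the KO and WT libraries carry the letters GFP, which the labels do not explain. Whether both libraries of a group came from different mice is not in the labels, so a p-value refers only to how far these libraries differ, and that spread may be technical.

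Macroautophagy encloses cytoplasm in a double membrane, the autophagosome, and delivers it to lysosomes. When nutrients are plentiful, the kinase complex mTORC1, whose substrates are bound by Raptor, phosphorylates ULK1 and ATG13 and so restrains initiation; this control acts on proteins, and transcript levels do not measure it. Once initiated, a lipid kinase complex makes the phosphoinositide PI3P, lipid transfer proteins enlarge the membrane, a conjugation cascade attaches ATG8 proteins to it, and receptors tether cargo to the ATG8 proteins. In beta cells autophagy is known for clearing mitochondria and insulin granules, and mice without Atg7 in beta cells have fewer beta cells and secrete less insulin.

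Depth and composition set the limits. The steps between low values imply up to 1920471 fragments, in KO+DNMT3A replicate 1, and as few as 244718, in WT replicate 1, so 1 fragment on a transcript of 2 kb was worth 0.26 FPKM in that KO+DNMT3A library and 2.04 FPKM in that WT library. KO replicate 2 and WT replicate 1 stood apart, with Ins1 and Ins2 together at 0.11% in that KO library and 0.17% in that WT library of the summed FPKM against 16.5% to 30.5% in the other 4 libraries. Mitochondrially encoded genes held 50.9% in KO replicate 2 and 44.8% in WT replicate 1, against 16.5% to 26.5% elsewhere. The rRNA-associated transcripts held 8.10% in KO replicate 2 and 15.3% in WT replicate 1, against 2.15% to 4.06% elsewhere. The 10 beta cell markers summed to 1684 FPKM in KO replicate 2 and 1583 FPKM in WT replicate 1, against 124621 to 218236 FPKM elsewhere, and Mafa was listed at 0 in both. The 7 duct markers summed to 959 FPKM in KO+DNMT3A replicate 1 and 2448 FPKM in WT replicate 1, against 86.8 to 182 FPKM in the other 4. Of the 6 acinar markers, 4 were listed at 0 in every library. The targeted gene, Rptor, did not separate the groups. It was 0.71 and 1.93 FPKM in the KO+DNMT3A islets. The KO values were 0.38 and 1.51 FPKM, and the WT values 0.80 and 1.06 FPKM. Of these, 1.51 and 0.80 FPKM belong to KO replicate 2 and WT replicate 1, where insulin was lowest. With these libraries set aside, KO at 0.38 FPKM lay below WT at 1.06 FPKM, the labelled direction, while the KO+DNMT3A values lay on both sides of that WT value. The fragments behind the Rptor values were not counted. Dnmt3a was 3.62 and 3.80 FPKM in the KO+DNMT3A islets, 3.19 and 2.50 FPKM in the KO islets and 2.94 and 4.43 FPKM in the WT islets. Whether the deletion and the added expression took place was not tested, so KO and KO+DNMT3A are names of labels here. In whole islets, fewer cells of a type and less RNA per cell cannot be told apart.

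The autophagy genes spanned a wide range of levels. Gabarap, an ATG8 gene, was the most abundant, with a median of 123 FPKM over the 6 libraries, and Atg7, which encodes the enzyme that activates ATG8 and ATG12 proteins, the least, with a median of 1.3 FPKM. The lowest Gabarap value, 104 FPKM, lay above the highest value of the next gene in the order, Sqstm1, at 91.3 FPKM. The ranges of the other 36 neighbouring pairs in the order overlapped. After Gabarap and Sqstm1 came Gabarapl2 with a median of 36.3 FPKM, Gabarapl1 with 33.3, Wipi1 with 30.3, Map1lc3a with 27.2, Vmp1 with 20.6, Atg4d with 17.9, Atg101 with 16.4 and Atg5 with 16.2 FPKM. Of the 38 genes, 8 were at 10 FPKM or more in every library and 20 were below 10 FPKM in every library.

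**Figure D1:**
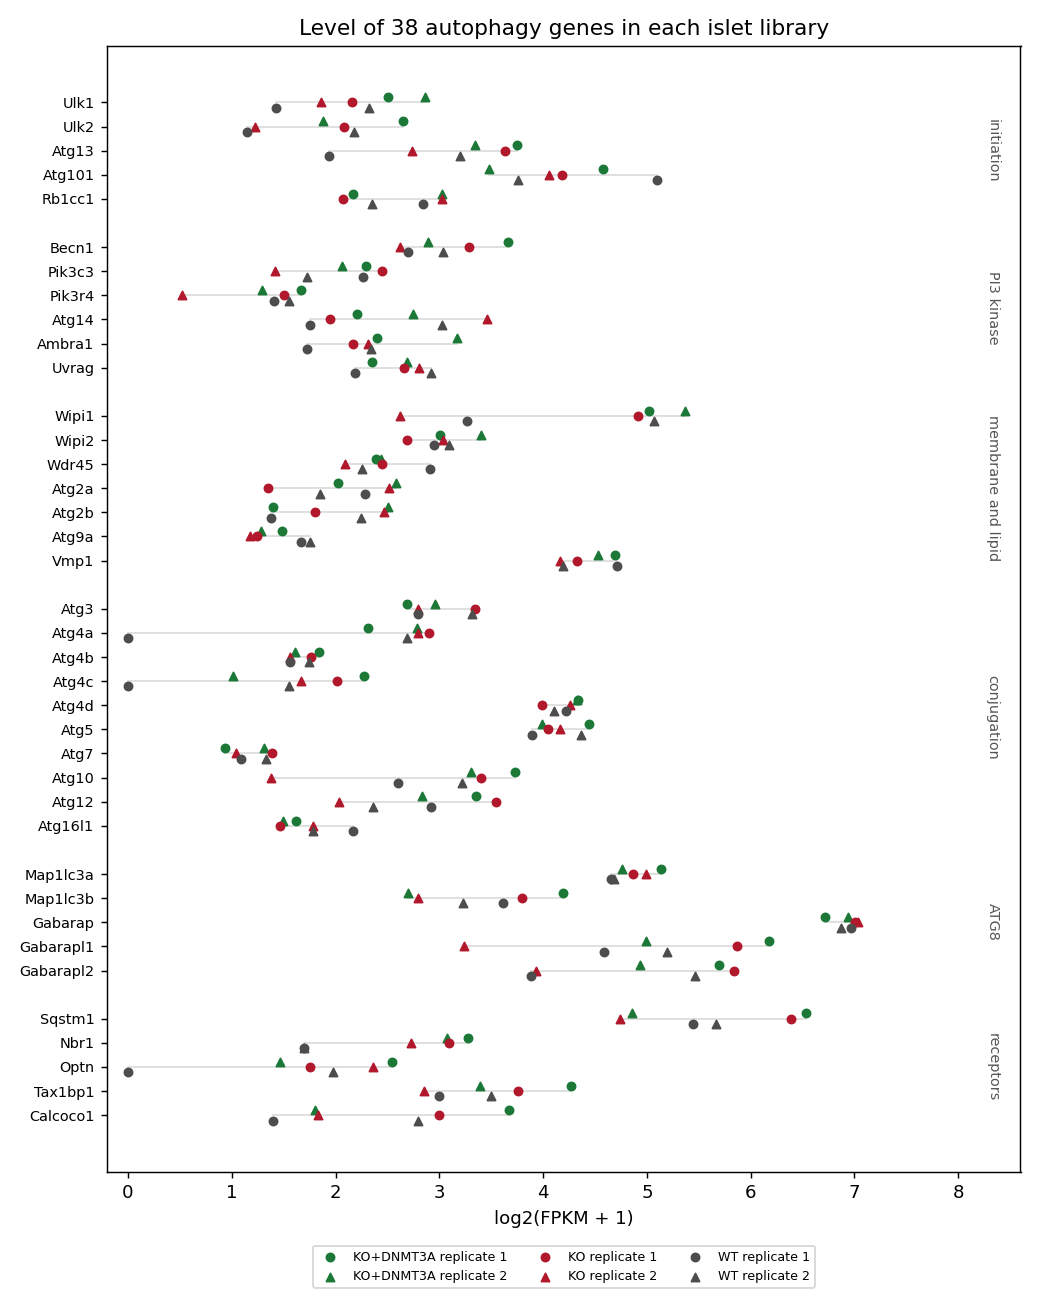
Level of each autophagy gene as log2(FPKM + 1) in the 6 libraries, ordered by role; each point is a library, colour marks the group and the symbol the replicate, and the grey line joins the lowest and highest value. Gabarap lay farthest right, at 104 to 130 FPKM, and Atg4a, Atg4c and Optn were listed at 0 in WT replicate 1.

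Constant and variable genes stood side by side in the list. In 13 of the 38 genes the highest library was less than 2 times the lowest. The narrowest ratios were those of Gabarap at 1.25, Atg4d at 1.29, Atg4b at 1.33 and Map1lc3a at 1.41. Among genes above 0 in every library the widest were Gabarapl1 at 8.50, Wipi1 at 7.83, Atg10 at 7.72 and Calcoco1 at 7.20. Their lowest values correspond to about 12.0, 13.4, 2.0 and 1.2 fragments in that order if the longest transcript is assumed. Atg4a, Atg4c and Optn, listed at 0 in WT replicate 1, have no ratio. Replicates of a group differed by a median of 0.44 on the log2(FPKM + 1) scale in KO+DNMT3A, 0.57 in KO and 0.53 in WT, against 0.58, 0.66 and 0.78 over all genes tested in the same groups. KO replicate 2 held the lowest value of 12 genes, or 31.6% of the list, against 24.0% of all genes tested. WT replicate 1 held the lowest value of 16, or 42.1%, against 34.3%. KO+DNMT3A replicate 1, the deepest library, held the highest value of 17 genes, or 44.7%, against 24.2% of all genes tested. In 10 of 38 genes, or 26.3%, the 2 lowest values were those of KO replicate 2 and WT replicate 1, against 25.6% of all genes tested. Those 10 were Atg10, Atg13, Atg4b, Becn1, Gabarapl1, Gabarapl2, Tax1bp1, Ulk1, Ulk2 and Wipi1. In no member were the 2 highest values those of these libraries, against 6.45% of all genes tested. Low insulin, high mitochondrial and rRNA-associated shares and low depth move together in these 2 libraries, and their part in these values was not tested.

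The initiation complex consists of the kinases ULK1 and ULK2, the subunits ATG13 and ATG101, and the scaffold FIP200, encoded by Rb1cc1. Ulk1 (chromosome 5, 110784488 to 110810097, GRCm38) was 4.66 and 6.26 FPKM in the KO+DNMT3A islets, 3.46 and 2.64 FPKM in the KO islets and 1.68 and 4.02 FPKM in the WT islets. Both KO+DNMT3A values lay above all 4 others, while KO and WT overlapped. The WT replicate 1 value corresponds to about 2.1 fragments if the longest transcript is assumed. Ulk2, the paralogue, was 5.28 and 2.67 FPKM in the KO+DNMT3A islets, 3.24 and 1.34 FPKM in the KO islets and 1.22 and 3.52 FPKM in the WT islets, with all groups overlapping. Atg13, the subunit that mTORC1 phosphorylates beside ULK1, was 12.4 and 9.13 FPKM in the KO+DNMT3A islets, 11.4 and 5.65 FPKM in the KO islets and 2.82 and 8.21 FPKM in the WT islets. Its KO+DNMT3A values lay above both WT values, the lower of which rests on about 2.5 fragments. Atg101, which stabilises ATG13, was the most abundant gene of the complex and lay between 10.2 and 22.9 FPKM in 5 libraries and at 33.2 FPKM in WT replicate 1. Rb1cc1 lay between 3.21 and 7.17 FPKM with overlapping groups.

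The class III phosphatidylinositol 3-kinase complexes share the lipid kinase VPS34 (Pik3c3), its regulator VPS15 (Pik3r4) and beclin 1 (Becn1), and are told apart by ATG14, which directs the kinase to forming autophagosomes, and UVRAG, which marks the complex of the endosomal route. Becn1, the most abundant of the 6 genes, was 11.6 and 6.42 FPKM in the KO+DNMT3A islets, 8.74 and 5.16 FPKM in the KO islets and 5.48 and 7.21 FPKM in the WT islets, and all groups overlapped. Ambra1, a scaffold that binds beclin 1, was 4.26 and 8.00 FPKM in the KO+DNMT3A islets, 3.50 and 3.98 FPKM in the KO islets and 2.31 and 4.06 FPKM in the WT islets. Its KO+DNMT3A values lay above all others, by 0.20 FPKM at the nearest point, which is less than the 3.74 FPKM between the KO+DNMT3A libraries. Atg14 was highest in KO replicate 2, at 10.03 FPKM, and lowest in WT replicate 1, at 2.37 FPKM. Uvrag kept within 3.57 and 6.57 FPKM, Pik3c3 within 1.67 and 4.45 FPKM and Pik3r4 within 0.43 and 2.17 FPKM, each with overlapping groups.

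Membrane delivery and growth depend on the PI3P-binding propeller proteins WIPI1, WIPI2 and WDR45, the lipid transfer proteins ATG2A and ATG2B, and the lipid scramblases ATG9A and VMP1. Wipi1 (chromosome 11, 109573331 to 109611967) was 31.5 and 40.4 FPKM in the KO+DNMT3A islets, 29.1 and 5.16 FPKM in the KO islets and 8.65 and 32.6 FPKM in the WT islets. It was low in the 2 insulin-poor libraries only, and the other 4 values lay between 29.1 and 40.4 FPKM whatever their label. Wipi2, whose product recruits the ATG16L1 complex, lay between 5.43 and 9.59 FPKM. Atg9a was 1.81 and 1.43 FPKM in the KO+DNMT3A islets, 1.37 and 1.25 FPKM in the KO islets and 2.18 and 2.37 FPKM in the WT islets. Its 3 groups did not overlap: WT was highest and KO lowest, with about 2.2 to 14.6 fragments behind each value. Exons of Atg9a overlap those of Ankzf1 on the opposite strand and of Gm29253 on the same strand, so its values may include their fragments. Vmp1 was 24.9 and 22.1 FPKM in the KO+DNMT3A islets, 19.04 and 16.9 FPKM in the KO islets and 25.2 and 17.3 FPKM in the WT islets, where KO+DNMT3A lay above KO and WT overlapped both. Wdr45, Atg2a and Atg2b lay between 1.55 and 6.51 FPKM with overlapping groups.

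The conjugation enzymes work in a cascade. ATG7 activates ATG12 and the ATG8 proteins, ATG10 and ATG3 pass them on, ATG5, ATG12 and ATG16L1 form the complex that completes the ATG8 transfer, and the ATG4 proteases prepare and recycle ATG8 proteins. Atg5 was 20.8 and 14.8 FPKM in the KO+DNMT3A islets, 15.5 and 16.9 FPKM in the KO islets and 13.9 and 19.7 FPKM in the WT islets, and Atg7 stayed between 0.91 and 1.61 FPKM. Neither separated any pair of groups. Atg4d, the most abundant of the 10 genes, was 19.3 and 19.01 FPKM in the KO+DNMT3A islets, 14.9 and 18.2 FPKM in the KO islets and 17.7 and 16.2 FPKM in the WT islets. Its KO+DNMT3A values lay above the other 4, by 0.86 FPKM at the nearest point in a gene whose KO replicates differed by 3.25 FPKM. Atg4d shares exon positions with Kri1 on the opposite strand.

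Atg10 was the conjugation gene with the widest range. It was 12.3 and 8.90 FPKM in the KO+DNMT3A islets, 9.59 and 1.59 FPKM in the KO islets and 5.08 and 8.30 FPKM in the WT islets, with the low values in the insulin-poor libraries. Atg4a, a protease gene, was 3.96 and 5.91 FPKM in the KO+DNMT3A islets and 6.48 and 5.92 FPKM in the KO islets, and in WT it was listed at 0 in replicate 1 and at 5.43 FPKM in replicate 2. Atg4c was 3.82 and 1.01 FPKM in the KO+DNMT3A islets and 3.04 and 2.17 FPKM in the KO islets, and in WT it was listed at 0 in replicate 1 and at 1.93 FPKM in replicate 2. At the depth of WT replicate 1, 3 fragments of the longest transcript would be 5.57 FPKM for Atg4a and 3.86 FPKM for Atg4c, limits that lie above 2 of the 5 other values of Atg4a and above all 5 of Atg4c. Atg16l1 was 2.07 and 1.81 FPKM in the KO+DNMT3A islets, 1.76 and 2.43 FPKM in the KO islets and 3.50 and 2.45 FPKM in the WT islets, where both WT values were above all others, by 0.02 FPKM at the nearest point. Atg12, Atg3 and Atg4b lay within 3.08 and 10.7 FPKM, 5.45 and 9.18 FPKM, and 1.95 and 2.58 FPKM, with overlapping groups.

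Promoter sequences of 3 conjugation genes are shown because each holds the E-box CACGTG, the core of the element bound by TFEB and TFE3, transcription factors that mTORC1 keeps out of the nucleus. The stretches run 5′ to 3′ on the gene's strand before the RefSeq start site (GRCm38.p6, all on the plus strand), with each E-box in capitals.
Atg3 (chr16:45158690-45158808): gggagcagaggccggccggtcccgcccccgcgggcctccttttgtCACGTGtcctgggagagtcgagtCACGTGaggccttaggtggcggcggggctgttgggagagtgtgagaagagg
Atg5 (chr10:44268280-44268338): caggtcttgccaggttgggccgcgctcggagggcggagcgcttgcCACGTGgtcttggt
Atg7 (chr6:114670919-114671014): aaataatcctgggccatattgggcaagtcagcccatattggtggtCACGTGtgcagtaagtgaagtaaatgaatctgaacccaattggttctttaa
RefSeq promoter windows of 300 bases were at hand for 32 of the 38 genes, 38 windows in all. CACGTG, which reads the same on both strands, lay in 4 of them, those of Atg3, Atg5, Atg7 and Atg14. This is 10.5% of the windows, against 7.15% of 32851 promoter windows of the same length. The longer form TCACGTG or its complement CACGTGA, which contains the E-box, lay in 3 windows, those of Atg3, Atg7 and Atg14, or 7.89% against 3.77%. The FOXO motif TGTTTAC or its complement GTAAACA lay in 0 of the 38, against 3.65%. These are matches of letters only. The Atg7 stretch lies inside the annotated gene, which starts at 114643097 on chromosome 6, and so precedes an internal start. The Atg14 window also lies inside its gene on the minus strand of chromosome 14. It reaches up to 47568684, short of the annotated 5′ end at 47570649. The 3 genes whose sequences are given had ratios of highest to lowest library of 1.68 for Atg3, 1.50 for Atg5 and 1.77 for Atg7. That of Atg14, whose window also holds the E-box, was 4.23. The Atg7 values correspond to about 1.1 to 8.9 fragments if the longest transcript is assumed.

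The ATG8 proteins are small ubiquitin-like proteins that are joined to autophagosome lipid and bind receptors. All 5 genes measured were expressed. Gabarap (chromosome 11, 69991143 to 69994951) was 104 and 121 FPKM in the KO+DNMT3A islets, 127 and 129.7 FPKM in the KO islets and 124 and 116 FPKM in the WT islets. It held from 37.4% to 68.5% of the summed FPKM of the 5 genes, and the share was lowest in KO+DNMT3A replicate 1 and highest in KO replicate 2. Gabarapl1 was 71.6 and 30.8 FPKM in the KO+DNMT3A islets, 57.5 and 8.42 FPKM in the KO islets and 23.02 and 35.7 FPKM in the WT islets. Gabarapl2 was 50.8 and 29.6 FPKM in the KO+DNMT3A islets, 56.4 and 14.3 FPKM in the KO islets and 13.8 and 43.02 FPKM in the WT islets. Both were lowest in the insulin-poor libraries and highest in KO+DNMT3A replicate 1 or KO replicate 1, and their groups overlapped.

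Of the LC3 genes, Map1lc3a was the more abundant in every library. It was 34.2 and 26.2 FPKM in the KO+DNMT3A islets, 28.3 and 30.9 FPKM in the KO islets and 24.2 and 24.7 FPKM in the WT islets, so that all values of both βRapKO groups lay above both WT values. The smallest gap, 1.41 FPKM, was less than the 7.99 FPKM between the KO+DNMT3A libraries. Map1lc3b, whose protein is the usual marker of autophagosomes, was 17.3 and 5.50 FPKM in the KO+DNMT3A islets, 12.9 and 5.94 FPKM in the KO islets and 11.2 and 8.35 FPKM in the WT islets. The WT values lay inside the range of the others. Map1lc3b overlaps Zcchc14 on the opposite strand.

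**Figure D2:**
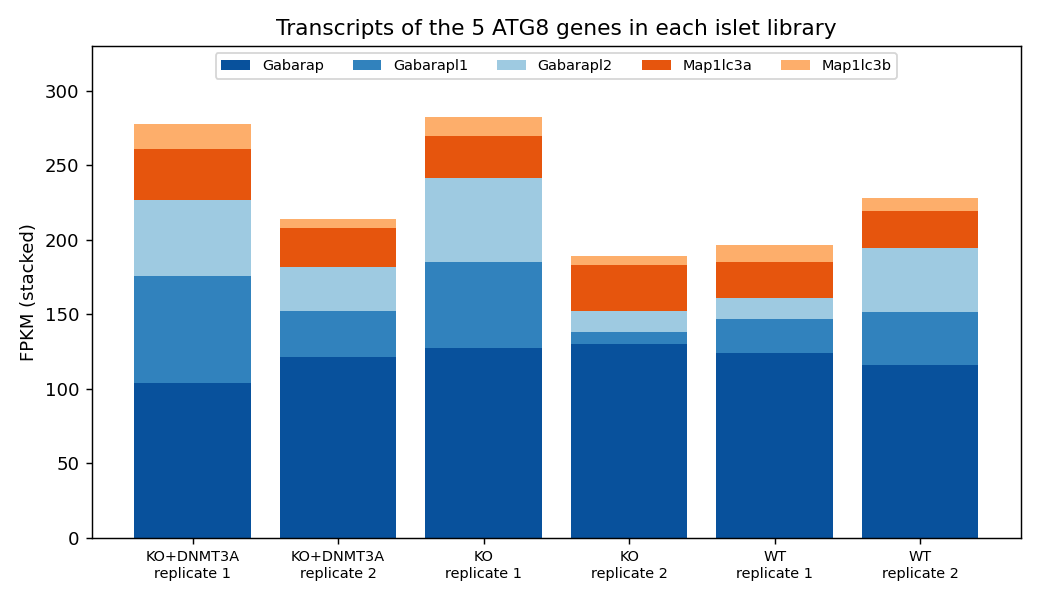
FPKM of the 5 ATG8 genes stacked for each library; colours mark the genes and the height of a bar is their sum. The Gabarap segment kept within 104 and 130 FPKM, while the sum ran between 189 FPKM in KO replicate 2 and 282 FPKM in its partner library, with Gabarapl1 and Gabarapl2 thinnest in KO replicate 2 and WT replicate 1.

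Cargo receptors bind both ubiquitin or another tag and ATG8 proteins. Nbr1 (chromosome 11, 101552149 to 101581951) was the gene of the list whose groups stood farthest apart relative to its spread. NBR1 is a receptor for ubiquitin-marked protein aggregates and peroxisomes that works with the SQSTM1 protein. Nbr1 was 8.70 and 7.43 FPKM in the KO+DNMT3A islets, 7.56 and 5.62 FPKM in the KO islets and 2.24 and 2.25 FPKM in the WT islets. All 4 βRapKO values were above both WT values, and the KO+DNMT3A and KO groups overlapped. With the longest transcript assumed, the values correspond to about 80.0 and 39.8 fragments in KO+DNMT3A, 51.6 and 21.0 in KO, and 2.6 and 10.5 in WT. With so few fragments in WT, the near equality of its values does not measure their precision. Their SD of 0.01 FPKM understates the counting error. Among the insulin-poor libraries Nbr1 was 5.62 FPKM in the KO library and 2.24 FPKM in the WT library, and among the insulin-rich ones 7.56 FPKM in the KO library and 2.25 FPKM in the WT library. The gene has 21 annotated transcripts, and no other gene's exons overlap it. Because its groups separate, the 120 bases before its first RefSeq start are given (GRCm38.p6, plus strand); CACGTG is not among the letters.
Nbr1 (chr11:101551987-101552106): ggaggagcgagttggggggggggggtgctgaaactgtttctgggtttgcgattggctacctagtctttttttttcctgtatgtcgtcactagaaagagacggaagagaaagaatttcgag

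Sqstm1, the best known receptor and itself an autophagy substrate, split the replicates instead of the groups. It was 91.3 and 28.1 FPKM in the KO+DNMT3A islets, 82.7 and 25.8 FPKM in the KO islets and 42.5 and 49.8 FPKM in the WT islets. The 2 high values belong to the first replicates of KO+DNMT3A and KO, the WT values lie between, and the group means of 59.7, 54.2 and 46.2 FPKM differ by less than the SDs of 44.7 in KO+DNMT3A and 40.3 in KO. Calcoco1, a receptor for endoplasmic reticulum, was also higher in the first replicates of KO+DNMT3A and KO. It was 11.7 and 2.50 FPKM in the KO+DNMT3A islets and 6.99 and 2.55 FPKM in the KO islets. In the WT islets Calcoco1 was 1.63 and 5.94 FPKM. Unlike for Sqstm1, the WT replicate 1 value was the lowest of all, at about 1.2 fragments. Optn, a receptor for damaged mitochondria, was 4.84 and 1.76 FPKM in the KO+DNMT3A islets and 2.38 and 4.12 FPKM in the KO islets, and in WT it was listed at 0 in replicate 1 and at 2.94 FPKM in replicate 2. For Optn 3 fragments in WT replicate 1 would be 4.69 FPKM, above 4 of its 5 other values. Tax1bp1, which binds ubiquitin-marked aggregates, lay between 6.23 and 18.2 FPKM with overlapping groups.

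**Figure D3:**
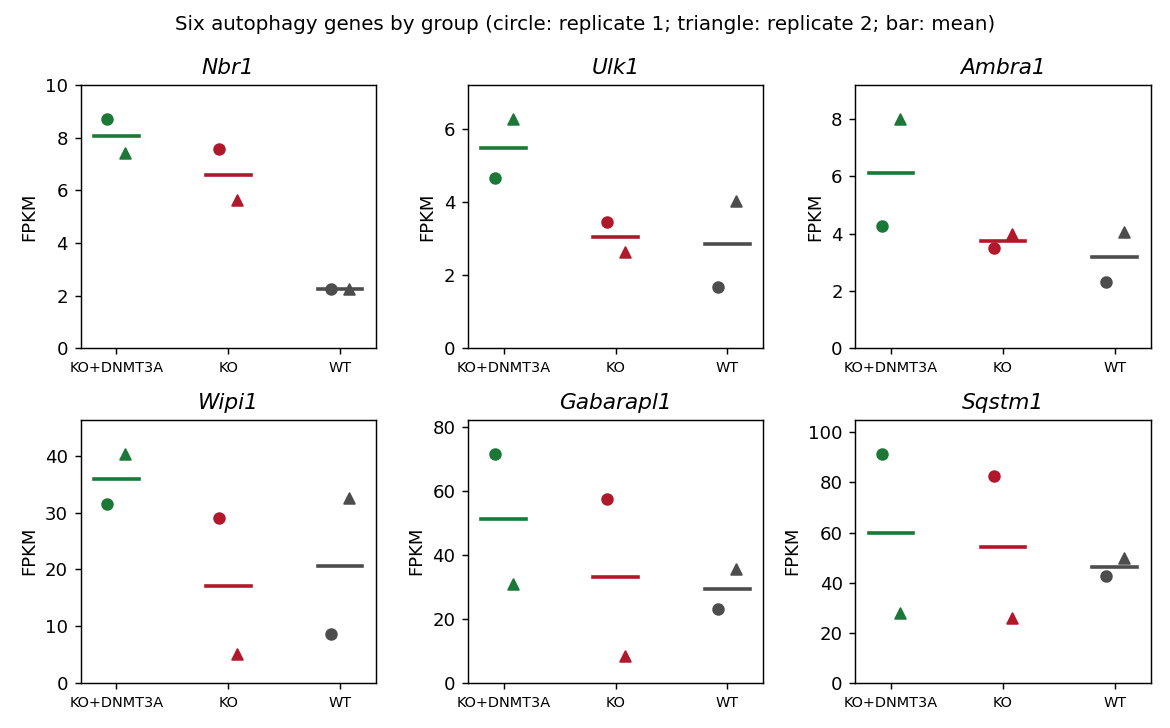
FPKM of 6 autophagy genes in each library, with a bar at the mean of each group and a panel for each gene. Nbr1 lay at 5.62 to 8.70 FPKM in KO+DNMT3A and KO and at 2.24 and 2.25 FPKM in WT, while Wipi1 was low in KO replicate 2 and WT replicate 1 and Sqstm1 was high in the first replicates of KO+DNMT3A and KO.

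KO against WT is the contrast that the labels give for the deletion of Rptor, whose own log2 fold change was -0.05 (SE 0.58). No autophagy gene passed, and as a list they were centred where all genes were. Of the 38 genes 21 were higher and 17 lower in KO, which is 55.3% higher against 52.4% of all genes tested, and 44.7% lower against 47.3%. Their median log2 fold change was 0.01, beside 0.03 over all genes. With the total taken without mitochondrial, insulin, amylin and rRNA-associated transcripts, 17 were higher and 21 lower. By role, 2 of 5 initiation genes, 4 of 6 lipid kinase genes, 1 of 7 membrane and lipid genes, 6 of 10 conjugation genes, 3 of 5 ATG8 genes and 5 of 5 receptor genes were higher in KO, with median log2 fold changes of -0.01, 0.13, -0.21, 0.01, 0.10 and 0.32 in that order. The higher receptor genes include Sqstm1 at 0.01, Tax1bp1 at 0.06 and Calcoco1 at 0.32, values well within their standard errors of 0.80, 0.61 and 0.82. Without KO replicate 1 these 3 were -0.81, -0.39 and -0.26, and without KO replicate 2 they were 0.83, 0.52 and 0.90, so their direction rests on which KO library enters. Without WT replicate 1 they were -0.10, -0.19 and -0.38.

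The KO and WT libraries did not overlap for 7 genes. Higher in KO without overlap were Atg4a, Atg4c, Gabarap, Map1lc3a and Nbr1, 5 of 38 against 9.36% of all genes tested. Lower were Atg9a and Atg16l1, 2 of 38 against 10.5%. The log2 fold change of Nbr1 was 1.21 (SE 0.50), with a mean of 6.59 ± 1.37 FPKM in the KO islets and of 2.24 ± 0.01 FPKM in the WT islets (SD, n = 2). Nbr1 was the only member with an unadjusted limma p under 0.05, against 1.81% of all genes tested; it was 0.0415, and the adjusted p was 1. With any of the 6 libraries left out, the unadjusted limma p of Nbr1 lay between 0.0686 and 0.163. Its log2 fold change ran from 1.03 without KO replicate 1 to 1.40 without KO replicate 2, and was 1.40 without both insulin-poor libraries. That of Atg4a was 1.51 (SE 0.85) and that of Atg4c 1.06 (SE 0.71); without WT replicate 1, where both are listed at 0, they were 0.16 and 0.29. Map1lc3a differed by 0.26 (SE 0.54), Gabarap by 0.10 (SE 0.55), Atg9a by -0.50 (SE 0.50) and Atg16l1 by -0.36 (SE 0.51). Without WT replicate 1 Atg16l1 differed by -0.17 and without KO replicate 1 by -0.20. Of 13233 genes 0, or 0.0%, passed an adjusted p of 0.05 by limma and 240 had an unadjusted p under 0.05. In simulated data with the spread of these libraries, drawn for each gene alone, the test called none of the changes put in. A gene that did not pass is thus not shown to be unchanged. The median of the list was -0.18 without KO replicate 1, -0.10 without WT replicate 1, 0.17 without WT replicate 2 and 0.24 without KO replicate 2, so its sign rests on which library enters.

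KO+DNMT3A against KO is the contrast that the labels give for Dnmt3a expression, and Dnmt3a itself differed by 0.30 (SE 0.51) on the log2 scale. More autophagy genes were higher than lower, as were more of all genes, and none passed. Of the 38 genes 27 were higher and 11 lower, which is 71.1% higher against 68.2% and 28.9% lower against 31.8% of all genes tested, and the median log2 fold change of 0.19 equalled the 0.19 over all genes. After quantile normalization, which moved the median of all genes to -0.01, 18 genes were higher and 20 lower and the median of the list was -0.01. By role, 4 of 5 initiation genes, 4 of 6 lipid kinase genes, 6 of 7 membrane and lipid genes, 5 of 10 conjugation genes, 4 of 5 ATG8 genes and 4 of 5 receptor genes were higher, with medians of 0.36, 0.28, 0.34, -0.0046, 0.15 and 0.27. This comparison and the one above share the KO libraries, which enter with opposite signs.

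Ulk1, Ambra1, Wipi1, Atg9a, Vmp1 and Atg4d were higher in KO+DNMT3A without overlap, 6 of 38 against 17.2% of all genes tested, and Atg4a and Gabarap were lower, 2 of 38 against 5.43%. Wipi1 had the widest difference, 1.43 (SE 0.91), with a mean of 36.0 ± 6.24 FPKM in the KO+DNMT3A islets and of 17.1 ± 16.9 FPKM in the KO islets (SD, n = 2). It was 0.285 without KO replicate 2 and 2.575 without KO replicate 1. Ulk1 differed by 0.67 (SE 0.55), with a mean of 5.46 ± 1.13 FPKM in the KO+DNMT3A islets and of 3.05 ± 0.58 FPKM in the KO islets, and by 0.52 without KO replicate 2. Ambra1 differed by 0.54 (SE 0.55) and by 0.15 without KO+DNMT3A replicate 2. The values for Vmp1 were 0.37 (SE 0.54), for Atg4d 0.21 (SE 0.52), for Atg9a 0.18 (SE 0.50), for Gabarap -0.19 (SE 0.55) and for Atg4a -0.30 (SE 0.85). Each of these 5 is smaller than its standard error. Without KO+DNMT3A replicate 1 Atg4a differed by -0.06, Gabarap by -0.08 and Atg9a by 0.07, and without KO replicate 1 Atg4d differed by 0.07. Nbr1 differed by 0.27 (SE 0.50), and by 0.08 without KO replicate 2. By limma 0 of 13233 genes, 0.0%, passed an adjusted p of 0.05, and 147 genes, 1.11%, had an unadjusted p under 0.05, none of them a member. Without KO replicate 2, 19 members were higher and 19 lower, with a median of 0.03 beside 0.07 over all genes.

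**Figure D4:**
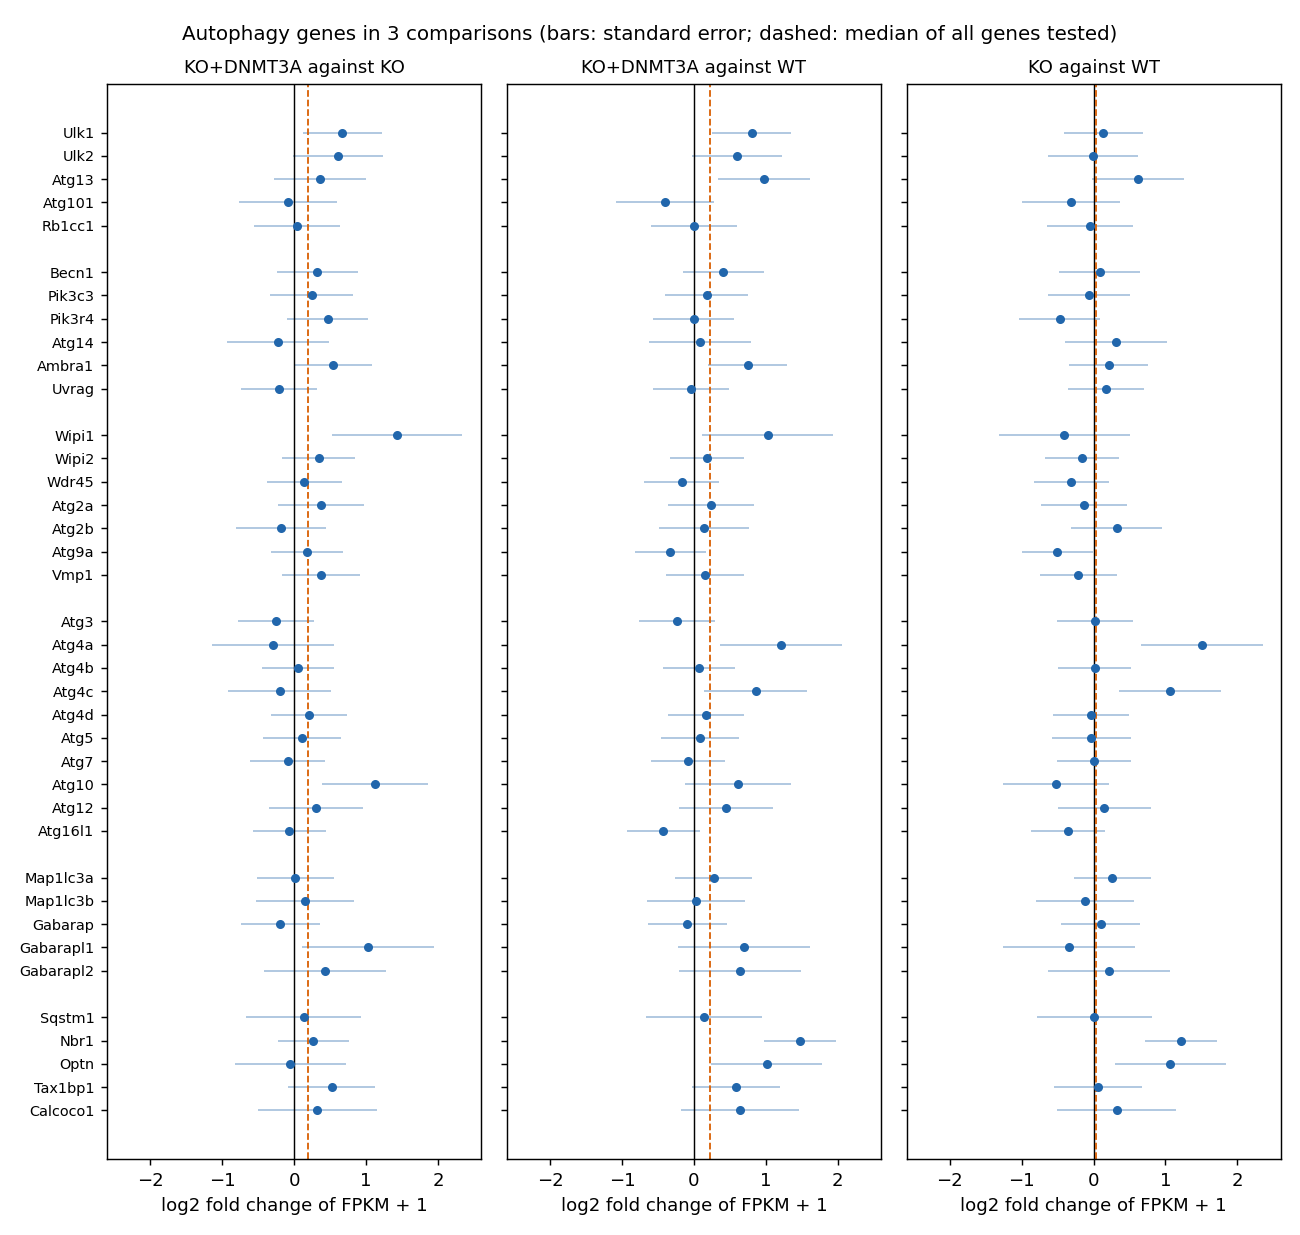
Log2 fold change of FPKM + 1 for each autophagy gene in 3 comparisons, with its limma standard error as a bar; the dashed line marks the median over all 13233 genes tested. Nbr1 lay at 1.48 in KO+DNMT3A against WT and 1.21 in KO against WT, and of 38 points 31, 36 and 33 lay within their standard error of the dashed line in the panels with KO+DNMT3A over WT, KO+DNMT3A over KO and KO over WT.

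KO+DNMT3A was finally set against WT, where Dnmt3a differed by 0.03 (SE 0.51) and Rptor by 0.22 (SE 0.58); this comparison shares its libraries with both comparisons above. Of the 38 genes 29 were higher and 9 lower, or 76.3% higher against 64.8% and 23.7% lower against 35.2% of all genes tested, and the median log2 fold change was 0.18 beside 0.23 over all genes. After quantile normalization 23 were higher and 15 lower, with medians of 0.05 for the list and -0.03 for all genes. By role, 4 of 5 initiation genes, 4 of 6 lipid kinase genes, 5 of 7 membrane and lipid genes, 7 of 10 conjugation genes, 4 of 5 ATG8 genes and 5 of 5 receptor genes were higher, with medians of 0.60, 0.13, 0.16, 0.13, 0.28 and 0.64. The receptor genes differed by 1.48 (Nbr1), 0.34 (Tax1bp1), 0.03 (Sqstm1), 0.03 (Optn) and -0.06 (Calcoco1) without both insulin-poor libraries. The initiation genes then lay between 0.09 (Ulk2) and 0.35 (Ulk1). When KO+DNMT3A replicate 1 was left out, Sqstm1 was -0.69, Calcoco1 -0.29 and Tax1bp1 0.15. Without WT replicate 1 the median of the list was 0.12, with 24 genes higher and 14 lower.

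Groups did not overlap for 9 genes. Ulk1, Atg13, Ambra1, Atg4d, Atg10, Map1lc3a and Nbr1 were higher in KO+DNMT3A, 7 of 38 against 19.2% of all genes tested, and Atg9a and Atg16l1 were lower, 2 of 38 against 7.87%. Nbr1 differed by 1.48 (SE 0.50), with a mean of 8.07 ± 0.90 FPKM in the KO+DNMT3A islets and of 2.24 ± 0.01 FPKM in the WT islets (SD, n = 2). It was again the only member with an unadjusted limma p under 0.05, against 2.86% of all genes tested; it was 0.0184, and the adjusted p was 0.997. Leaving out each library in turn gave 1.38 to 1.58, with an unadjusted limma p of 0.0278 to 0.0862. Atg13 differed by 0.98 (SE 0.64), with a mean of 10.8 ± 2.33 FPKM in the KO+DNMT3A islets and of 5.52 ± 3.82 FPKM in the WT islets, and by 0.34 without WT replicate 1. Ulk1 differed by 0.81 (SE 0.55) and by 0.35 without WT replicate 1, and Ambra1 by 0.75 (SE 0.55) and by 0.36 without KO+DNMT3A replicate 2. Atg9a differed by -0.33 (SE 0.50), and Atg16l1 by -0.42 (SE 0.51) and by -0.23 without WT replicate 1. By limma 0 of 13233 genes, 0.0%, passed an adjusted p of 0.05, and 379 had an unadjusted p under 0.05.

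The 8 macrophage markers summed to 218 and 145 FPKM in the KO+DNMT3A islets, 488 and 313 FPKM in the KO islets and 511 and 482 FPKM in the WT islets. The part of macrophages or other cells in the autophagy values was not tested.

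Beyond the 38 genes, 42 further genes of the pathway were read, of which 40 were tested and 2, Tfeb and Mitf, stayed below the filter. Tfeb was 0.62 and 0.49 FPKM in the KO+DNMT3A islets, 0.15 and 0.69 FPKM in the KO islets and 1.33 and 0.45 FPKM in the WT islets. Its relative Tfe3 lay between 1.36 and 2.37 FPKM. None of the 40 passed in any comparison, and none had an unadjusted limma p under 0.05. In KO against WT 21 of 40 were higher, with a median of 0.02, in KO+DNMT3A against KO 30 of 40 with a median of 0.17, and in KO+DNMT3A against WT 27 of 40 with a median of 0.28. Without overlap, 4 of 40 were higher and 3 lower in KO against WT, or 10% and 7.5% against 9.36% and 10.5% of all genes tested. In KO+DNMT3A against KO 6 were higher and 0 lower, or 15.0% and 0.0% against 17.2% and 5.43%, and in KO+DNMT3A over WT 11 were higher and 1 lower, or 27.5% and 2.5% against 19.2% and 7.87%.

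Of these genes, Zfyve1, Plekhm1 and Foxo3, named after their values were seen, had all KO+DNMT3A and KO values above both WT values. The share of all genes tested with this pattern was not counted. Foxo3 was 2.93 and 2.32 FPKM in the KO+DNMT3A islets and 2.32 and 2.52 FPKM in the KO islets. In the WT islets it was 1.46 and 2.29 FPKM. Its log2 fold change was 0.26 (SE 0.51) in KO against WT and 0.34 (SE 0.51) in KO+DNMT3A against WT. Zfyve1, which encodes the PI3P-binding protein DFCP1 of the membrane sites where autophagosomes form, was 4.17 and 3.01 FPKM in the KO+DNMT3A islets, 3.81 and 3.31 FPKM in the KO islets, and in WT was listed at 0 in replicate 1 and at 1.86 FPKM in replicate 2. For Zfyve1 3 fragments in WT replicate 1 would be 2.77 FPKM, below all 4 KO+DNMT3A and KO values. Plekhm1, an adaptor that joins autophagosomes to lysosomes, was 2.35 and 4.46 FPKM in the KO+DNMT3A islets, 3.71 and 4.19 FPKM in the KO islets and 1.27 and 1.44 FPKM in the WT islets. In KO against WT the log2 fold changes were 1.43 (SE 0.63) for Zfyve1 and 1.07 (SE 0.53) for Plekhm1, and in KO+DNMT3A against WT 1.43 (SE 0.63) and 0.86 (SE 0.53). Without WT replicate 1 Zfyve1 differed by 0.67 in each of these comparisons, and Plekhm1 by 1.02 in KO against WT. Without KO+DNMT3A replicate 2 Plekhm1 differed by 0.51 in KO+DNMT3A against WT. Zfyve1 and Plekhm1 both had an adjusted p of 1 in the limma test of KO against WT.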

How the data were processed

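The values are FPKM per gene as deposited by the authors, per the file headers. The submitters' processing notes list edgeR, StringTie 1.3.0, HISAT2 2.0.4 and the mm10 build, without their roles. No library column was left out. GENCODE M21 (GRCm38, the mm10 assembly) gave symbols and positions by gene ID; 478 genes had no symbol. Strand use in counting is not given in the sources used here, and exons of 12 members overlap a gene on the opposite strand. Whether fragments were shared with processed pseudogenes was not tested.

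The members and lists were chosen with earlier results of these data known. Genes that reached 1 FPKM in 2 or more libraries were tested, log2(FPKM + 1) was taken, and limma 3.58.1 (R 4.3.3) fitted all 6 libraries with a trended, robust empirical Bayes step. Two-sided p-values were adjusted by Benjamini-Hochberg over all 13233 genes at 0.05. Fold changes refer to FPKM + 1 and understate those of low genes. On simulated data the fitted changes followed those put in. The test called none of them at the spread of these libraries, not even the largest, and nearly all once the spread was made far smaller. The spread was drawn for each gene alone and changes were put into KO only. Shifts shared by many genes of a library were thus not simulated. Fragment numbers were inferred from genes with a single transcript, whose low values were whole multiples within 0.01 in 84.4% to 91.7% of cases; they cover counting error only.

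Fold changes are given for members whose groups did not overlap, up to 4 in each direction, or with an unadjusted p under 0.05. The other members given library by library, with any fold change, and Zfyve1, Plekhm1 and Foxo3 were chosen after their values were seen. Levels follow the highest gene of each role and Ulk1, Becn1, Map1lc3b, Gabarapl1, Atg5, Atg7 and Sqstm1. Alternatives tried were quantile normalization, a filter of 5 FPKM or none, a pseudocount of 0.1, a total without mitochondrial, insulin, amylin and rRNA-associated transcripts, only the groups compared, no trend or robust step, a replicate block, each library left out, and both insulin-poor libraries left out. A crossed replicate block was added after the values were seen. Tables were made with pandas 2.3.3 and numpy 2.4.6 in Python 3.11.15, and figures with matplotlib 3.10.9.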

Additional observations from a re-analysis of the deposited data

How the results depend on the processing

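The count of genes passing was 0 in each comparison under every alternative run, with the smallest adjusted p at 0.131. The 18 fold changes chosen by the stated rule kept their sign under each alternative. Their groups do not overlap, so leaving out libraries could not turn the sign, and several other alternatives cannot alter the fold change. Their kept sign is thus largely set by how they were chosen. Fold changes of Sqstm1, Tax1bp1 and Calcoco1 in KO against WT, outside that rule, turned negative without KO replicate 1, at -0.81, -0.39 and -0.26. The median of the list in KO against WT lay between -0.183 and 0.242 over the libraries left out in turn, and the value of 0.242 without KO replicate 2 moved by more than the 0.203 SD between replicates. It was -0.033 with the total taken without mitochondrial, insulin, amylin and rRNA-associated transcripts. The corresponding ranges were 0.029 to 0.362 for KO+DNMT3A against KO and 0.116 to 0.339 for KO+DNMT3A against WT. A filter of 5 FPKM left 24 of the 38 genes. With a replicate block 0 genes passed. Such a block holds every group equally, so it cannot change the medians of 0.012, 0.191 and 0.181. Deviations of same-numbered libraries correlated at -0.27 between KO and WT, 0.32 between KO+DNMT3A and KO, and 0.10 between KO+DNMT3A and WT. These replicate numbers come from the sample titles, and the deposited library names carry other numbers. There WT replicate 1, KO replicate 2 and KO+DNMT3A replicate 2 share a number. Whether libraries are paired by those numbers was not tested. A crossed replicate block, in which only the KO libraries were swapped, also left 0 genes. It set WT replicate 1 and KO replicate 2 with KO+DNMT3A replicate 1, so it follows neither the titles nor the deposited numbers. Leaving out a library of a pair makes the remaining one be assumed to vary like the other groups. In WT replicate 1, 3 fragments were 3.86 to 5.57 FPKM for the 3 members listed at 0, and the Nbr1 value of 2.24 FPKM rests on about 2.6 fragments.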
